A study of Homo sapiens with 5 samples.

Results

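The 9 cell cycle cyclins measured here are CCNA2, CCNB1, CCNB2, CCND1, CCND2, CCND3, CCNE1, CCNE2 and CCNF, of classes A, B, D, E and F. They were taken by gene symbol from the 26485 genes with deposited counts. After doxorubicin, 5 of the 9 fell at an adjusted p-value under 0.01 (CCNA2, CCNB1, CCNB2, CCNF and CCNE2) and 0 rose, where 2.73% of the 14187 genes tested fell and 1.29% rose. CCNE1 and the 3 class D cyclins did not pass that threshold. The class D mRNA CCND1 was the most abundant cyclin mRNA per transcript length in every library. It was also higher in each doxorubicin library than in either control library, as were 24.3% of all genes tested.

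Cyclins are the regulatory subunits of cyclin-dependent kinases (CDKs) and are named for proteins that accumulate and are destroyed once per cell cycle. D cyclins pair with CDK4 and CDK6 in response to growth signals and start the phosphorylation of the retinoblastoma protein. E cyclins pair with CDK2 at the start of DNA replication, CCNA2 pairs with CDK2 and CDK1 through S and G2, and B cyclins pair with CDK1 to bring cells into mitosis. CCNF activates no known kinase and is the F-box protein that gives an SCF ubiquitin ligase its substrates. The mRNAs of E cyclins are driven by E2F factors and peak near G1/S, those of CCNA2, the B cyclins and CCNF peak in G2 and mitosis, and those of D cyclins follow growth signals more than the phase of the cycle.

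RNA-seq was performed on RPE1 cells, a wild-type, immortalized cell line from human retinal pigment epithelium. Of 5 libraries, 2 came from cells given the solvent DMSO, 2 from cells given 0.2 μM doxorubicin and 1 from cells given 0.34 μM doxorubicin, all for 18 h. Doxorubicin intercalates into DNA and poisons type II topoisomerases. The concentrations are those of the sample labels, and the treatment protocol of the labels states far higher ones. The comparison addresses the response of the cells to the drug, with all 3 doxorubicin libraries joined into 1 group.

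The libraries held between 23773061 and 36725345 counts on genes. Of 12 markers of retinal pigment epithelium, 7 stayed below 1 CPM in every library (RPE65, TYR, TYRP1, DCT, RLBP1, LRAT and TTR), while the transcription factor genes MITF and OTX2 were detected. None of the markers tested for this epithelium, for keratins, fibroblasts, blood or endothelium passed the threshold, and their summed levels overlapped between the groups except for the keratins (597 to 724 CPM in DMSO and 988 to 1218 in doxorubicin). A sum follows its most abundant genes, so shifts of markers at low levels do not show in it. The part of the cell type markers in the cyclin results was not tested. Levels are given in CPM, a gene's counts scaled to a common library size after TMM normalization. From bulk RNA alone, fewer cells in a phase of the cycle and less of an mRNA per cell cannot be told apart. The paper reports, from flow cytometry, a larger share of cells in G2 or mitosis after doxorubicin. The mRNAs of CCNA2, CCNB1, CCNB2 and CCNF were nonetheless lower in every doxorubicin library than in either control. How the phases of the cells relate to the cyclin levels was not tested.

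All 4 cyclins of S phase, G2 and mitosis fell. CCNA2, the cyclin of S phase and G2 (chromosome 4 of GRCh38, 121816444 to 121823883), was at 134 and 146 CPM in the DMSO libraries, at 9.43 and 10.5 CPM at 0.2 μM and at 7.33 CPM at 0.34 μM. Every doxorubicin library thus lay far below both controls, and the mean level was 15.4-fold lower. Its log2 fold change (doxorubicin over DMSO) was -3.95 (SE, the standard error, 0.19, adjusted p = 0.000691 by the quasi-likelihood test of edgeR, Benjamini-Hochberg over all genes tested). CCNA2 overlaps EXOSC9, an exosome subunit gene that fell too, with a log2 fold change of -1.37 (edgeR adjusted p = 0.00688), so that some reads of each could be counted for the other.

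CCNB1, the main activator of CDK1 at the entry into mitosis (chromosome 5, 69167150 to 69178245), was at 83.8 and 163 CPM in DMSO, at 7.54 and 11.5 CPM at 0.2 μM and at 6.39 CPM at 0.34 μM. The DMSO libraries differed almost as 1 to 2, yet the groups did not overlap. The log2 fold change was -3.87 (SE 0.36, edgeR adjusted p = 0.00181). Without DMSO replicate 2 it was -3.33 and lost the call (edgeR adjusted p = 0.0133).

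CCNB2, the second mitotic B cyclin (chromosome 15, 59105146 to 59125045), was at 87.1 and 108 CPM in DMSO, at 11.4 and 10.2 CPM at 0.2 μM and at 8.96 CPM at 0.34 μM. Its levels were 9.57-fold lower on average and close to each other within each group. The log2 fold change was -3.26 (SE 0.18, edgeR adjusted p = 0.000691). CCNF (chromosome 16, 2429447 to 2458854) was at 52.2 and 58.4 CPM in DMSO, at 6.11 and 4.199 CPM at 0.2 μM and at 4.66 CPM at 0.34 μM. This mRNA of a ubiquitin ligase subunit fell by about as much as those of the B cyclins, with a log2 fold change of -3.47 (SE 0.21, edgeR adjusted p = 0.000694). CCNA2, CCNB2 and CCNF passed the threshold with each of the 5 libraries left out in turn.

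All 9 cyclins passed the filter on low counts. Their median log2 fold change was -3.26, against 0.01 over all genes tested. In 6 of the 9 every doxorubicin library lay below both controls (23.4% of all genes tested did so), and in 1 (CCND1) every one lay above (24.3% of all genes). DESeq2 called 6 of the 9, CCNE1 in addition, against 14.1% of all genes, and limma voom called 4, without CCNE2, against 3.71%.

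**Figure D1:**
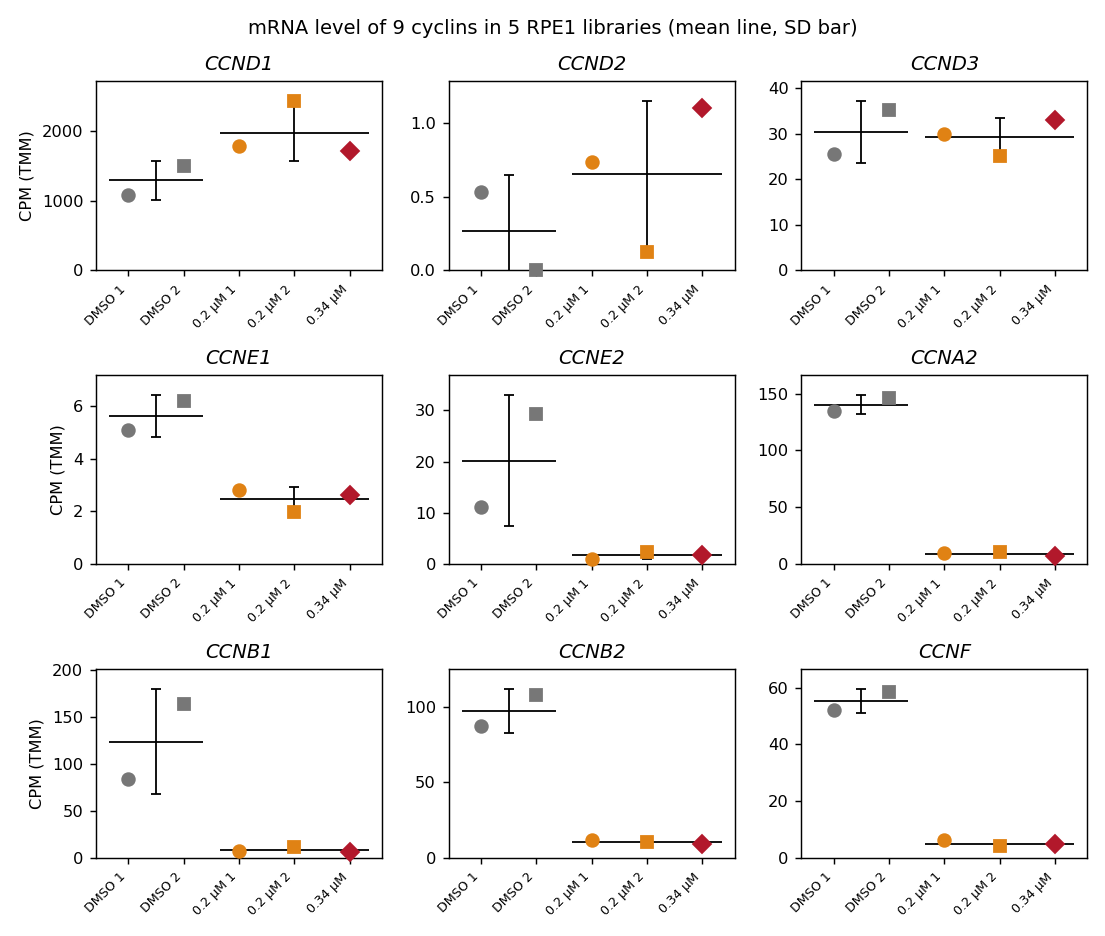
mRNA levels (CPM, linear axes from 0) of the 9 cyclins in each library, with circles and squares for replicates 1 and 2, a diamond for the lone 0.34 μM library, lines for the means of the 2 DMSO and the 3 doxorubicin libraries and bars for the SD (cut at 0 for CCND2). CCNA2, CCNB1, CCNB2, CCNF, CCNE1 and CCNE2 are lower in all doxorubicin libraries, CCND1 is higher in all of them, and CCND2 and CCND3 overlap.

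RefSeq promoter windows (GRCh38.p14, 250 bases before to 50 after a start) were at hand for 6 of the 9 cyclins, and not for CCND1, CCND2 and CCNE2. They were searched on both strands for the CCAAT box (CCAAT), which the factor NF-Y binds, for the CHR element (TTTGAA or TTCGAA), which MuvB complexes bind, and for E2F sites (TTTGGCGC, TTTCCCGC, TTTCGCGC or TTTGCCGC). The windows of the 4 cyclins of S phase, G2 and mitosis, whose mRNAs fell together, are shown with that of CCNE1, which did not pass the threshold. Capitals mark matches, and ATTGG is a CCAAT box on the other strand.
CCNA2, chr4:121823834-121824013, minus strand: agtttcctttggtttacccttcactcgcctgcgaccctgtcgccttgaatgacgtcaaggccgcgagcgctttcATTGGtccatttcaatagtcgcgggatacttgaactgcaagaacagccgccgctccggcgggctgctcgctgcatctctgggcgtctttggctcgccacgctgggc
CCNB1, chr5:69167020-69167199, plus strand: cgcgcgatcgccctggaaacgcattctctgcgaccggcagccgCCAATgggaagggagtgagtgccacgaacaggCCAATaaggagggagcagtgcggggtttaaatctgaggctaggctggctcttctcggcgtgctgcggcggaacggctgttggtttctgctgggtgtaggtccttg
CCNB2, chr15:59105016-59105195, plus strand: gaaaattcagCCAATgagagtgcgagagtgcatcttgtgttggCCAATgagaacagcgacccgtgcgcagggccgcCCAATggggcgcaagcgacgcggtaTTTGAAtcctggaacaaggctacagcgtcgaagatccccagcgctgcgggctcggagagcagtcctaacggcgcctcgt
CCNF, chr16:2429197-2429496, plus strand: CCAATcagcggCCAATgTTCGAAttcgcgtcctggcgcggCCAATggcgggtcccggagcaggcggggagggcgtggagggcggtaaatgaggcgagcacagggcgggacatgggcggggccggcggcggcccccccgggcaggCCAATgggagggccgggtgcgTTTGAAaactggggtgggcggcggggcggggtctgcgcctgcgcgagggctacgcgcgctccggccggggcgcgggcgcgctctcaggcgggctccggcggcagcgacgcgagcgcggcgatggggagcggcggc
CCNE1, chr19:29811861-29812040, plus strand: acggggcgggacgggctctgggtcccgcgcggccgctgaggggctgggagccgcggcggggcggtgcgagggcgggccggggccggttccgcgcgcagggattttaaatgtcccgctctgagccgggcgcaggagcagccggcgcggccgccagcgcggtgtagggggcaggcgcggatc

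At least 1 CCAAT box lay in the window of each of CCNA2, CCNB1, CCNB2 and CCNF, as in 34.6% of all 35116 windows of the table. In CCNB1 the boxes began 87 and 55 bases before the start, in CCNB2 120, 87 and 54 bases before it (with another at 244, outside the stretch shown) and in CCNA2 56 bases before it. In CCNF they began 250, 239, 210 and 106 bases before it. Neighbouring boxes were thus 32 bases apart in CCNB1, 124, 33 and 33 in CCNB2 and 11, 29 and 104 in CCNF. A CHR of the letters searched lay 29 bases before the start in CCNB2 and 85 and 233 bases before it in CCNF. Of all windows, 16.4% hold one. Other spellings of the CHR were not searched, so the remaining windows may still hold a CHR. No E2F site of these letters was found in the windows of the 6 cyclins, where 3.31% of all windows hold one. Other spellings of the E2F site were not searched either, so these windows may still hold E2F sites. Of the 3 windows listed for CCND3, a D cyclin that did not pass the threshold, 2 also held a CCAAT box. These matches describe letters only, and none of them was tested for binding.

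The E cyclins, which act with CDK2 at the start of DNA replication, gave fold changes of different size. CCNE2 (chromosome 8, 94880224 to 94896693) was at 11.1 and 29.3 CPM in DMSO, at 0.928 and 2.33 CPM at 0.2 μM and at 1.79 CPM at 0.34 μM. All doxorubicin libraries lay below the controls, which themselves differed 2.63-fold. The log2 fold change was -3.58 (SE 0.51, edgeR adjusted p = 0.00776). With any of the 5 libraries left out it missed the threshold, with adjusted p-values of 0.0106 to 0.0322 from edgeR and log2 fold changes of -4.13 to -2.74. CCNE2 overlaps INTS8 and NDUFAF6, whose log2 fold changes were -0.41 and -0.39, neither past the threshold.

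CCNE1 (chromosome 19, 29811991 to 29824312) was at 5.07 and 6.19 CPM in DMSO, at 2.82 and 1.95 CPM at 0.2 μM and at 2.62 CPM at 0.34 μM. It was thus lower in all 3 doxorubicin libraries, with 47 to 95 counts behind the values there and 133 and 158 in DMSO. The log2 fold change of -1.19 (SE 0.28) did not pass the threshold (edgeR adjusted p = 0.0391), which it passed with DESeq2 (adjusted p = 0.00396).

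None of the D cyclins, the partners of CDK4 and CDK6, passed the threshold. CCND1 (chromosome 11, 69641156 to 69654474) was at 1089 and 1493 CPM in DMSO, at 1784 and 2432 CPM at 0.2 μM and at 1709 CPM at 0.34 μM. Its mean was 1291 ± 286 CPM (SD, n = 2) in DMSO and 1975 ± 398 CPM (SD, n = 3) in doxorubicin, 1.53-fold as much. The groups did not overlap, as was so in this direction for 24.3% of all genes tested. The log2 fold change was 0.61 (SE 0.24, edgeR adjusted p = 0.136), and DESeq2 and limma voom gave adjusted p-values of 0.0703 and 0.121.

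CCND3, the D cyclin best known from lymphoid cells (chromosome 6, 41934933 to 42050035), was at 25.5 and 35.1 CPM in DMSO, at 29.9 and 25.0 CPM at 0.2 μM and at 33.1 CPM at 0.34 μM. The libraries of both groups were mixed in order, with a log2 fold change of -0.05 (SE 0.21, edgeR adjusted p = 0.907). CCND2 (chromosome 12, 4273762 to 4305353) was barely detected. Its counts were 14 and 0 in DMSO, 19 and 3 at 0.2 μM and 40 at 0.34 μM. Replicate 2 had fewer counts than replicate 1 in both pairs, and the groups overlapped. The fitted log2 fold change of 1.30 (SE 1.23, edgeR adjusted p = 0.521) is not a measurable difference at these counts.

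Levels of different cyclins can be compared only per length, here CPM per kilobase of the canonical GENCODE transcript. On this scale the levels in DMSO ran from CCND1 (305 ± 67.5, SD, n = 2) through CCNB2 (65.4 ± 9.71), CCNB1 (60.9 ± 27.7), CCNA2 (51.0 ± 3.05), CCND3 (14.96 ± 3.37), CCNF (13.1 ± 1.03) and CCNE2 (7.55 ± 4.79) to CCNE1 (2.88 ± 0.403) and CCND2 (0.0411 ± 0.0582). The neighbours CCNB2 and CCNB1, CCNB1 and CCNA2, and CCND3 and CCNF overlapped between libraries. CCNE2 and CCNE1 did not overlap, but their means differed by less than the SD of CCNE2. In doxorubicin the order was CCND1 (466 ± 93.8, SD, n = 3), CCND3 (14.5 ± 2.02), CCNB2 (6.83 ± 0.811), CCNB1 (4.18 ± 1.33), CCNA2 (3.30 ± 0.584), CCNE1 (1.26 ± 0.232), CCNF (1.18 ± 0.236), CCNE2 (0.629 ± 0.264) and CCND2 (0.101 ± 0.0760). CCNB1 and CCNA2 overlapped there, as did CCNE1 and CCNF. CCND3 stood below the B cyclins and CCNA2 in DMSO and above them in doxorubicin.

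Class D made up more of the cyclin mRNA in doxorubicin than in DMSO. Per length, class D held 61.6% and 61.3% of the cyclin signal in the DMSO libraries and 96.0%, 96.8% and 96.6% in the doxorubicin libraries, of which nearly all was CCND1. Class B went from 22.8% and 25.3% to between 2.07% and 2.50%, class A from 11.2% and 8.82% to between 0.613% and 0.756%, class F from 2.82% and 2.29% to between 0.164% and 0.318% and class E from 1.55% and 2.34% to between 0.309% and 0.462%. Each class share was outside the range of the other group. The summed level of the A, B, E and F cyclins was 374 and 511 CPM in DMSO and 38.2, 40.7 and 31.7 CPM in doxorubicin, while the sum over all 9 cyclins overlapped between the groups (1488 and 2039 CPM against 1775 to 2498 CPM).

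**Figure D2:**
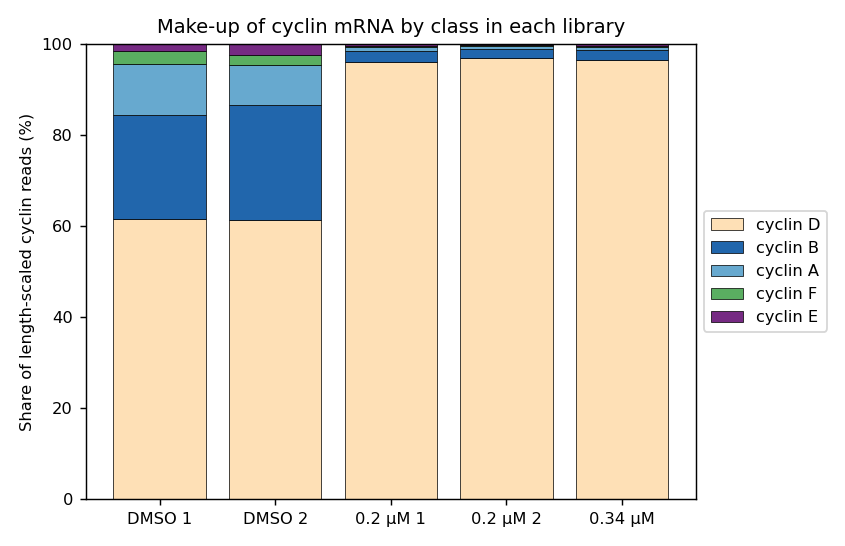
Share of length-scaled cyclin reads (%, each bar adding to 100) by cyclin class in each of the 5 libraries, with 2 DMSO, 2 at 0.2 μM and 1 at 0.34 μM doxorubicin. Class D fills 61.3% and 61.6% of the DMSO bars and 96.0% to 96.8% of the doxorubicin bars.

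Ratios of cyclins within a library do not depend on the scaling between libraries, and 7 pairs were compared. The log2 ratio of CCNB1 to CCNE1 counts was 4.04 and 4.72 in DMSO, 1.41 and 2.55 at 0.2 μM and 1.28 at 0.34 μM, so the ratio was lower in every doxorubicin library than in either control. The log2 ratio of CCNE1 to CCNE2 was -1.13 and -2.24 in DMSO, 1.58 and -0.25 at 0.2 μM and 0.54 at 0.34 μM, with no overlap. That of CCND1 to CCND3 was 5.42 and 5.41 in DMSO, 5.90 and 6.60 at 0.2 μM and 5.69 at 0.34 μM, also with no overlap. For these 3 pairs the exact two-sided permutation test gave p = 0.2 (0.467 after Benjamini-Hochberg adjustment over the 7 pairs), which is the smallest p that this test can give with 2 against 3 libraries, so it cannot reach 0.05 here. The ratios of CCNB1 to CCNB2, of CCNA2 to CCNB1, of CCNF to CCNB1 and of CCND1 to CCND2 overlapped between the groups (exact permutation p of 0.4 to 0.8, adjusted 0.56 to 0.8), and the last depends on the pseudocount of 0.5 because CCND2 had 0 counts in a library.

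**Figure D3:**
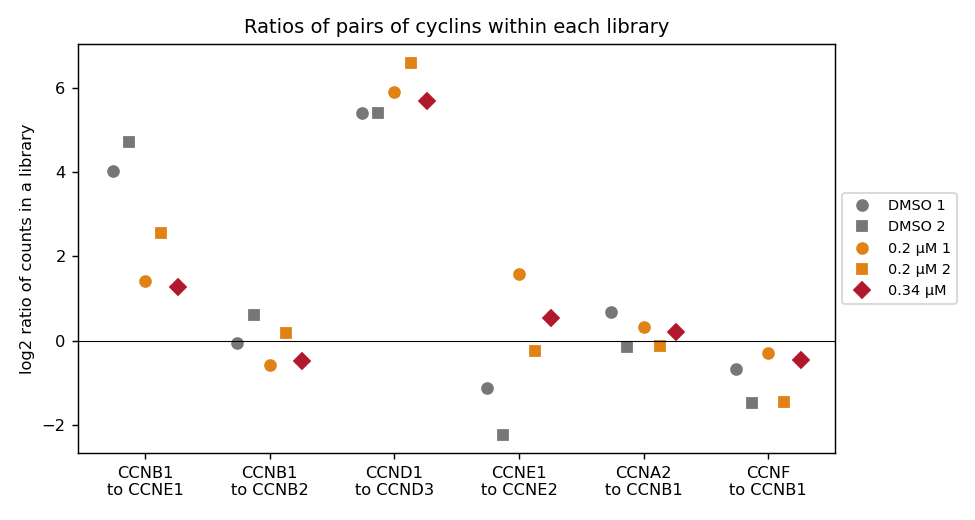
Log2 ratio of the counts of pairs of cyclins within each library (pseudocount 0.5), with grey for DMSO, orange for 0.2 μM and red for 0.34 μM doxorubicin. CCNB1 to CCNE1, CCND1 to CCND3 and CCNE1 to CCNE2 separate the groups, and the 3 pairs of CCNB1 with CCNA2, CCNB2 and CCNF overlap.

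Between the doses, 0 of the 9 cyclins passed an adjusted p of 0.01 in edgeR, DESeq2 or limma voom, and 0 had an unadjusted p under 0.05 in edgeR, as against 0% called and 0.155% with an unadjusted p under 0.05 among all genes tested. CCNB1 had the largest difference among the members that fell, a log2 difference (0.34 μM minus 0.2 μM) of -0.57 (SE 0.47), and CCNA2 had one of -0.44 (SE 0.27). Those of CCNB2, CCNF and CCND1 were -0.27, -0.15 and -0.30, and those of CCND3, CCNE1 and CCNE2 were 0.27, 0.13 and 0.14, each smaller than its standard error. CCND2 had the widest error, with a difference of 1.34 (SE 1.43). The 0.34 μM condition has 1 library, whose spread was taken from the other pairs, so these values do not show that the doses act alike.

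Replicates of a condition differed by gene. CCNE2 was 2.63-fold higher in replicate 2 than in replicate 1 of DMSO and 2.51-fold higher in replicate 2 than in replicate 1 of 0.2 μM. CCNB1 was 1.95-fold and 1.53-fold higher in replicate 2 of these pairs, and CCND1 1.37-fold and 1.36-fold. For CCNA2 these ratios were 1.09 and 1.11, while CCNE1 and CCNF were higher in replicate 2 of DMSO (1.22 and 1.118) and lower in replicate 2 of 0.2 μM (0.692 and 0.687). Leaving out each library in turn shows how far the calls depend on single libraries. It also leaves fewer libraries for the test, so a lost call need not come from these differences.

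**Figure D4:**
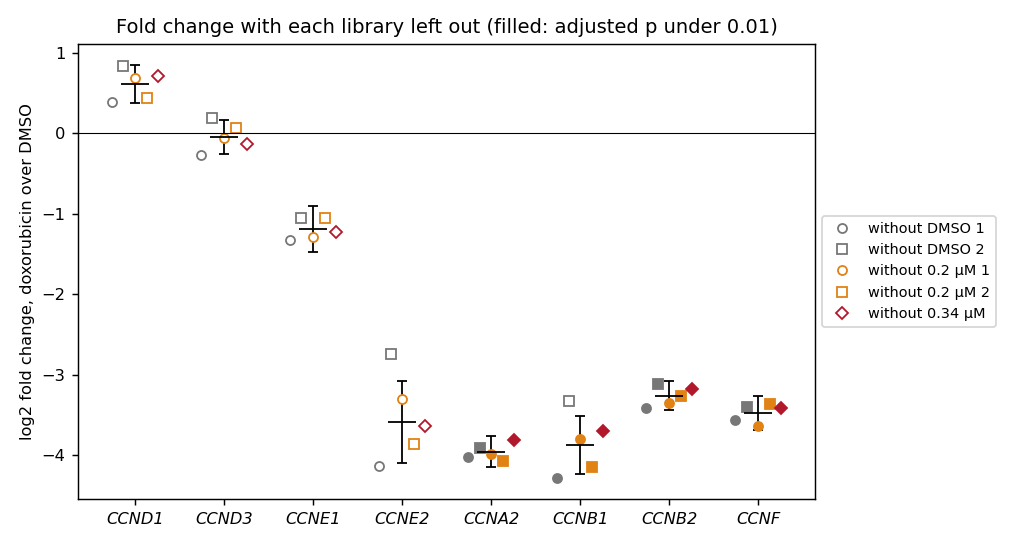
Log2 fold change of 8 cyclins (CCND2 is not drawn) in the fit of all libraries (black line with its standard error) and in 5 fits that each omit 1 library (symbols, filled where the adjusted p was under 0.01). CCNA2, CCNB2 and CCNF stay filled in all 5 fits, CCNB1 is open without DMSO replicate 2, and CCNE2 is open in all 5.

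The partner kinases split in the same comparison. CDK1, the partner of the B cyclins, went from 73.2 ± 16.3 CPM (SD, n = 2) in DMSO to 13.5 ± 4.50 CPM (SD, n = 3), with a log2 fold change of -2.44 (edgeR adjusted p = 0.00402). CDK2, the partner of the E cyclins and CCNA2, went from 60.2 ± 7.03 CPM to 18.3 ± 0.974 CPM, with a log2 fold change of -1.71 (edgeR adjusted p = 0.00163). CDK4 and CDK6, the partners of the D cyclins, did not pass the threshold, with log2 fold changes of -0.46 and 0.10 (standard errors 0.35 and 0.14). The sign for CDK4 changed with the library left out (-0.98 to 0.31). CDK1 and CDK2 each kept the threshold in 1 of the 5 fits that left out a library, and both lost it without DMSO replicate 2, without 0.2 μM replicate 1 or without the 0.34 μM library.

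Genes that control the cyclin-CDK pairs were counted from lists, beside the 4.02% of all genes tested that were called. Of 7 CDK inhibitors, 1 rose and 1 fell. CDKN1A, which encodes the inhibitor p21, had a log2 fold change of 3.39 (edgeR adjusted p = 0.000768), and CDKN2C, an inhibitor of CDK4 and CDK6, one of -2.18 (edgeR adjusted p = 0.00163). Of 5 genes for CDC25 phosphatases, which activate CDKs, and the kinases that oppose them, 3 fell and 0 rose. CDC25C had the largest fall of these, -3.82, and the kinase gene WEE1 fell with a log2 fold change of -1.64. No gene of either list passed the threshold in every fit that left out a library. Without 0.2 μM replicate 2, 1 CDK inhibitor and 2 genes of the CDC25 list passed.

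Of 10 genes for the ubiquitination of cyclins, 4 fell and 0 rose. CDC20, the activator of the anaphase-promoting complex, fell from 158 ± 60.6 CPM to 7.55 ± 1.00 CPM, a log2 fold change of -4.39 (edgeR adjusted p = 0.000694), and UBE2C, UBE2S and FBXO5, named after their values were seen, fell too. FBXW7, the F-box protein that recognises cyclin E, stood at 1.13 on the log2 scale and missed the threshold (edgeR adjusted p = 0.011). It passed with DESeq2 (adjusted p = 2.00e-06), which called 5 genes of this list lower and 1 higher, against 14.1% of all genes in either direction. Of 20 transcription regulators of cyclin genes, 7 fell and 0 rose, with a median log2 fold change of -0.51. E2F8, a repressor of the E2F family, had the lowest value, -3.88, from 12.6 ± 3.73 CPM in DMSO. Its standard error of 0.65 left it outside the threshold (edgeR adjusted p = 0.0128), which it passed with DESeq2 (adjusted p = 6.66e-09). LIN37, a MuvB subunit, had the highest value, 0.29, and did not pass. Without DMSO replicate 2, 2 of the ubiquitination genes and 0 of the transcription regulators passed, and leaving out each of the other libraries left 1 to 3 of the regulators.

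Other cyclins, most of which act in transcription or outside the cell cycle, gave no calls. Of 20 listed, 17 were tested (CCNA1, CCNI2 and CNTD2 were too low). Of these, 0 passed the threshold in edgeR, against 4.02% of all genes tested, and 1 passed in DESeq2, against 14.1%. With shares of this size, few calls among 17 genes do not set them apart from other genes. Their median log2 fold change was -0.20 and their range -0.51 to 0.76. CCNL2, linked to splicing, had the highest value (0.76, SE 0.14, edgeR adjusted p = 0.0164) and was the call of DESeq2, and CCNJL had the lowest (-0.51, SE 0.21).

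**Figure D5:**
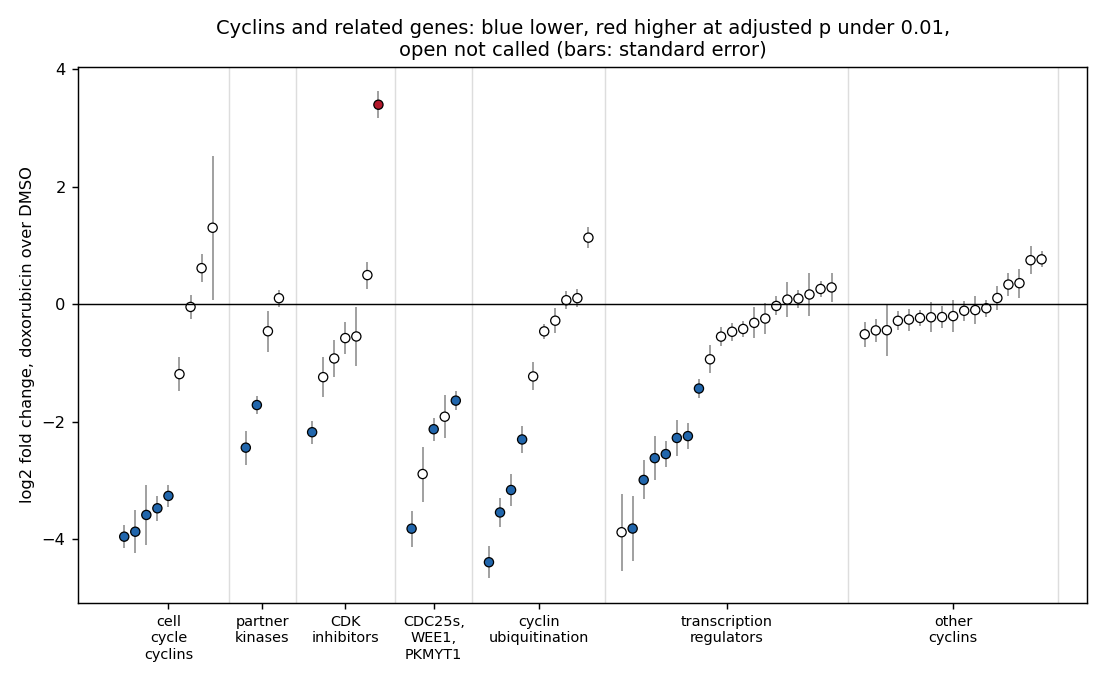
Log2 fold change (doxorubicin over DMSO, bars for the standard error) of the 9 cell cycle cyclins and of the genes tested in 6 lists, with filled points for an adjusted p under 0.01. The cyclins of S phase, G2 and mitosis lie between -3.95 and -3.26, the red point is CDKN1A at 3.39, and all 17 other cyclins are open and lie between -0.51 and 0.76.

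Genes with the pattern most like that of each cyclin were found among 11748 genes whose mean log2 CPM was 1 or more, by the root mean square difference of centred log2 CPM over the 5 libraries. For CCNA2 these were KIF4A (0.085) and BUB1B (0.099), and for CCNB1 DEPDC1B (0.13) and KIF2C (0.18). KIF18A was the nearest for CCNB2 (0.12) and the next after TROAP (0.14) for CCNF (0.16), and UBE2T was the next for CCNB2 (0.14). CCNE2 had no close match, with E2F2 at 0.37 and FAM83D at 0.38. CCNE1 lay nearest to PCNT (0.047) and KIAA1841 (0.091), CCND1 to CIRBP (0.059) and SEC23B (0.063), CCND3 to BRF1 (0.051) and RXRA (0.060) and CCND2 to WNK4 (0.20) and TSPAN2 (0.23). The pattern of CCND2 rests on 0 to 40 counts per library, so its matches are not reliable. Among the cyclins themselves CCNB2 and CCNF were the closest pair (0.17), and CCNA2 lay at 0.31 from CCNB1.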

How the data were processed

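Poly-A RNA of 5 libraries was sequenced in pairs of reads, with replicates that the study's methods call biological. The labels number only replicate 2 of DMSO and of 0.2 μM, and the unnumbered library of each condition is called replicate 1 here. The authors aligned them with STAR (hg38) and deposited raw counts per gene, made with Rsubread and the iGenomes annotation. For versions, strand setting and multi-mapped reads: not given in the sources used here. A table with the authors' own DESeq2 comparison (mean counts, fold changes, p-values) was also deposited and not used.

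The counts were tested in R 4.3.3 with edgeR 4.0.16 (quasi-likelihood test, TMM, a minimum count of 10 and total of 15), with 3 doxorubicin against 2 DMSO libraries, no covariates, Benjamini-Hochberg adjustment over all 14187 genes and a threshold of 0.01. DESeq2 1.42.0 and limma 3.58.1 were alternatives, beside normalization, filter, threshold, dose grouping, thinning, leaving out libraries and a replicate block. The doses were compared in a fit of 3 conditions. Standard errors are the absolute log2 fold change over the square root of F. A prior count of 2 entered log2 CPM. Only the edgeR comparison of 2 groups was tried on simulated counts, and the other methods were not. Transcript lengths are those of GENCODE v44 (lifted to GRCh37), which may differ from the annotation used for counting. Replicates of a condition were no copies of each other (chi-square of 117 and 75.3 per degree of freedom).

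The cyclins, gene lists and tests were chosen with earlier results of these data known. Named are all 9 cyclins, the 4 partner kinases, the lowest and highest member of each other list, members called against most of their list, and the 2 genes most like each cyclin.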

Additional observations from a re-analysis of the deposited data

Results flagged for a closer look

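CCND3 moved in opposite directions at the 2 doses, with both 0.2 μM libraries (29.9 and 25.0 CPM) below and the 0.34 μM library (33.1 CPM) above the DMSO mean of 30.3 CPM. The difference between the doses was 0.27 on the log2 scale (standard error 0.32) and did not pass (unadjusted p = 0.426 from edgeR's model over all genes), and the DMSO libraries (25.5 and 35.1 CPM) span all of these values but the lowest.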

How the results depend on the processing

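CCNA2, CCNB2 and CCNF kept their direction and call under all 14 alternatives. In the fit of 3 conditions, 0.2 μM against DMSO called 4 of the 9 cyclins, 0 partner kinases and 1 transcription regulator. Over all 14187 genes tested it called 171, so calls were fewer throughout. How many genes were called at 0.34 μM is not given here, since that condition has 1 library. For the same reason, a call lost there need not mean a smaller fall. Of the CDC25 list, 5 genes passed with DESeq2, with no filter, with the replicate block and at an adjusted p of 0.05. Of the other cyclins, 1 passed with DESeq2 and at 0.05. Leaving out a library gave 3 to 4 cyclins, 0 to 1 partner kinases, 0 to 2 CDK inhibitors, 0 to 3 genes of the CDC25 list, 2 to 4 of ubiquitination and 0 to 3 regulators.

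CCNB1 lost the call at 0.34 μM, though its log2 fold change there was -4.27, against -3.87 in the main fit. With a library left out, the log2 fold change of CCNB1 ranged from -4.28 to -3.33. CCNE2 lost the call with limma voom (-3.50), at 0.2 μM (-3.63), at 0.34 μM (-3.49) and with any library left out (-4.13 to -2.74). CCNE1 gained it with DESeq2 (-1.20). CCND3 turned positive at 0.34 μM (0.13), without DMSO replicate 2 (0.19) and without 0.2 μM replicate 2 (0.06), ranging from -0.27 to 0.19. The causes were not tested.

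Divided by transcript length, the mean shares in DMSO and doxorubicin were 10.0% and 0.666% for class A, 24.1% and 2.23% for B, 61.4% and 96.5% for D, 1.94% and 0.389% for E and, in DMSO, 2.55% for F. By reads they were 8.10% and 0.447% for A, 12.4% and 0.918% for B, 74.9% and 98.2% for D, 1.41% and 0.207% for E and 3.19% and 0.253% for F.

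Over all genes, edgeR called 571, DESeq2 2026 and the fit with no filter 1020, and 49 to 215 were called with a library left out, fewest without DMSO replicate 2. With the replicate number as a block in the DMSO and 0.2 μM libraries, 1249 genes and 5 cyclins were called, against 178 and 4 without it. The differences between replicates correlated at 0.528 between these conditions across genes, which are not independent replicates, but 2 pairs, with replicate 1 not numbered in the labels, do not show that the numbers pair the samples. With 2 DMSO libraries each control decides much of the spread, and CCND2 is limited by its low and uneven counts.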
